A study of Mus musculus with 12 samples.

Results

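Dendritic cells (DCs) carry receptors for small molecules made by the diet, by gut bacteria and by their own and neighbouring cells. The transcripts of 9 such G protein-coupled receptors were followed in migratory DCs of liver, duodenum and pancreas. The receptors were taken by gene symbol, whatever their values, and all 9 were found once each among the 55401 genes of the deposited tables and passed the filter that left 44624 genes for testing. They were Ffar2, Ffar4, Gpr84, Hcar2, Sucnr1, P2ry14, Gpr65, Gpr132 and Gpr35.

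The cells came from B6 mice of 6 to 8 weeks, with no treatment or altered allele named in the labels. Each tissue gave 4 libraries of polyA RNA, and each library held the cells of 2 pooled mice. The sort took live cells with CD45, CD11c, CD103 and high MHC class II and without lineage markers or CD11b, which is how conventional type 1 DCs (cDC1) are known to look. A gate of this kind selects cells by surface protein and leaves no record of where in the organ a cell lay. Libraries held 220.9 to 356.1 M estimated counts (M for mega). Levels are given as TPM, which is scaled for transcript length and library size, where receptors are set beside each other, and as CPM, a share of library counts after TMM normalisation, where tissues are. A level with ± is the mean and SD of the 4 libraries of a tissue, and a log2 difference with ± carries its SE. All 10 cDC1 markers on the list used here, among them Xcr1, Clec9a, Irf8 and Batf3, were detected, and their summed level was 4733 to 5750 CPM in liver, 3783 to 5755 in duodenum and 4336 to 5688 in pancreas. Single markers differed at an adjusted p under 0.05 (edgeR quasi-likelihood test). Against duodenum, Cadm1 was higher and Itgae lower in liver, and Cadm1 and Cd24a were higher and Itgae and Tlr3 lower in pancreas. That was 20% and 40% of the list, beside 7.32% and 7.70% of all tested genes. Duodenum libraries also held 8484 to 12436 CPM of a list of 12 B and plasma cell genes, led by Igha, against 224 to 735 in liver and 252 to 1119 in pancreas. Pancreas libraries held 1018 to 5214 CPM of a list of 14 acinar genes, led by Clps, against 3.21 to 4.58 in liver and 3.48 to 15.5 in duodenum. The part of acinar RNA in the receptor differences was not tested.

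As background, receptors of this kind sit in the plasma membrane, bind a metabolite outside the cell and pass the signal to G proteins, which raise or lower cyclic AMP or release calcium. Ffar2 senses short-chain fatty acids such as acetate and propionate, Ffar4 long-chain unsaturated fatty acids, and Gpr84 medium-chain fatty acids. Hcar2 senses the ketone body beta-hydroxybutyrate and the vitamin niacin, Sucnr1 senses succinate, and P2ry14 senses UDP-glucose and related UDP-sugars. Gpr65 and Gpr132 belong to the proton-sensing receptors, with lactate and oxidised fatty acids also proposed as ligands of Gpr132. Gpr35 has several proposed ligands, among them the tryptophan metabolite kynurenic acid. In the gut, several of them are known for linking diet and bacterial products to immune cells.

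The 9 receptors covered a wide range of levels, and their order was led by the same pair in every tissue. Ffar4 was the most abundant, at 217 ± 21.1 TPM in pancreas, 169 ± 26.1 in duodenum and 161 ± 23.8 in liver, which placed it above 98.5% of the tested genes in each tissue. P2ry14 followed at 70.6 ± 12.95 TPM in liver, 58.6 ± 8.73 in duodenum and 50.5 ± 1.06 in pancreas. No library of any tissue put P2ry14 as high as Ffar4, or any other receptor as high as P2ry14.

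In liver the next places were held by Gpr132 (28.3 ± 2.36 TPM) and Gpr35 (25.4 ± 2.18 TPM), whose library ranges overlapped. Gpr65 (16.2 ± 4.67 TPM) and then Ffar2 (3.91 ± 2.65 TPM) lay below them in liver, each clear of its neighbours. In duodenum the next 3 places went to Gpr65 (26.3 ± 3.76 TPM), Gpr132 (22.8 ± 4.00 TPM) and Ffar2 (15.9 ± 3.51 TPM), each overlapping the next, and Gpr35 followed at 5.08 ± 0.58 TPM with no overlap with Ffar2. In pancreas Gpr132 (25.3 ± 1.55 TPM), Gpr35 (22.7 ± 2.95 TPM) and Gpr65 (22.5 ± 4.99 TPM) overlapped, and Ffar2 fell among the rarest receptors at 0.48 ± 0.32 TPM. Ffar2 thus ranked above Gpr35 in duodenum and below it in liver and pancreas. Hcar2, Gpr84 and Sucnr1 stayed below 1 TPM in all 12 libraries, and their order among themselves could not be read in any tissue because their ranges overlapped.

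**Figure D1:**
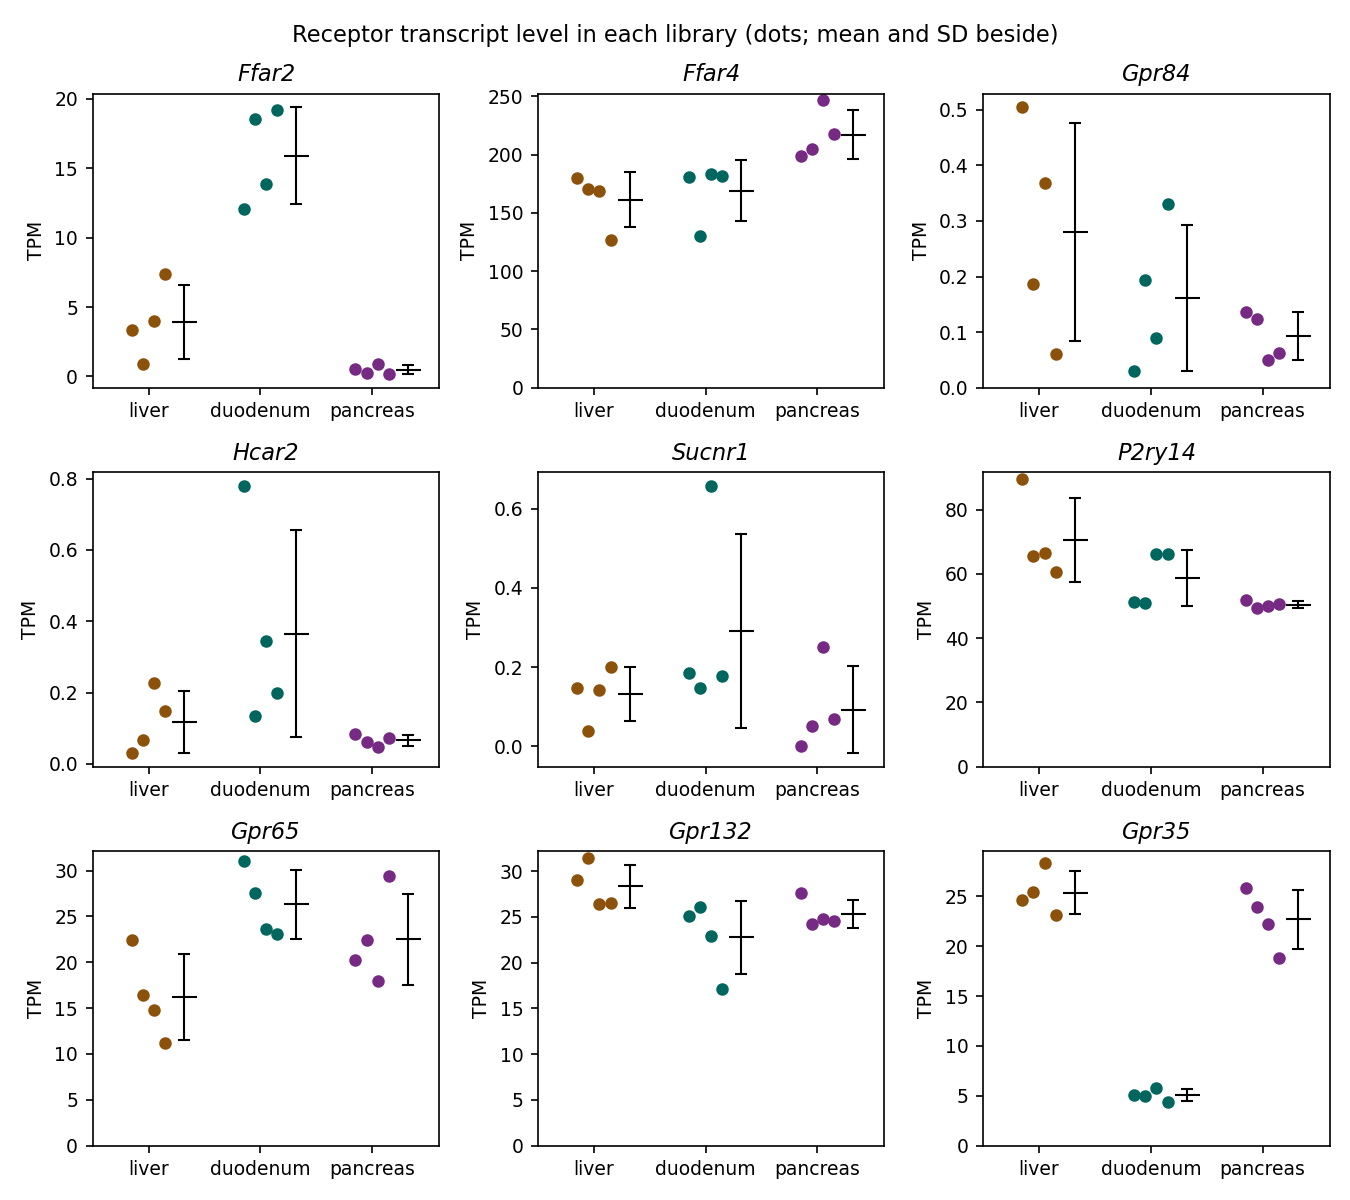
Level of each receptor in TPM (vertical axis, linear, own scale for each receptor) in the 4 libraries of liver, duodenum and pancreas, with dots for libraries and a bar with whiskers for the mean and SD. The 4 duodenum libraries of Gpr35 lie between 4.39 and 5.80 TPM, below all libraries of the other tissues, while those of Ffar2 lie between 12.04 and 19.2 TPM, above all of them.

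The summed level of the 9 receptors was 306 ± 38.6 TPM in liver, 298 ± 27.0 in duodenum and 339 ± 17.8 in pancreas. Ffar4 made up 52.6%, 56.3% and 64.0% of that sum. P2ry14 made up 23.0% in liver, 19.6% in duodenum and 14.9% in pancreas. The share of Gpr35 was 8.36% in liver, 1.71% in duodenum and 6.73% in pancreas, and that of Ffar2 was 1.36%, 5.41% and 0.14%. In TPM, the summed level of every pancreas library (325 to 363) lay above that of every duodenum library (258 to 317), and liver (256 to 350) overlapped with both. Summed in CPM, the scale used here between tissues, pancreas and duodenum libraries overlapped as well, so their separation held in TPM only.

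**Figure D2:**
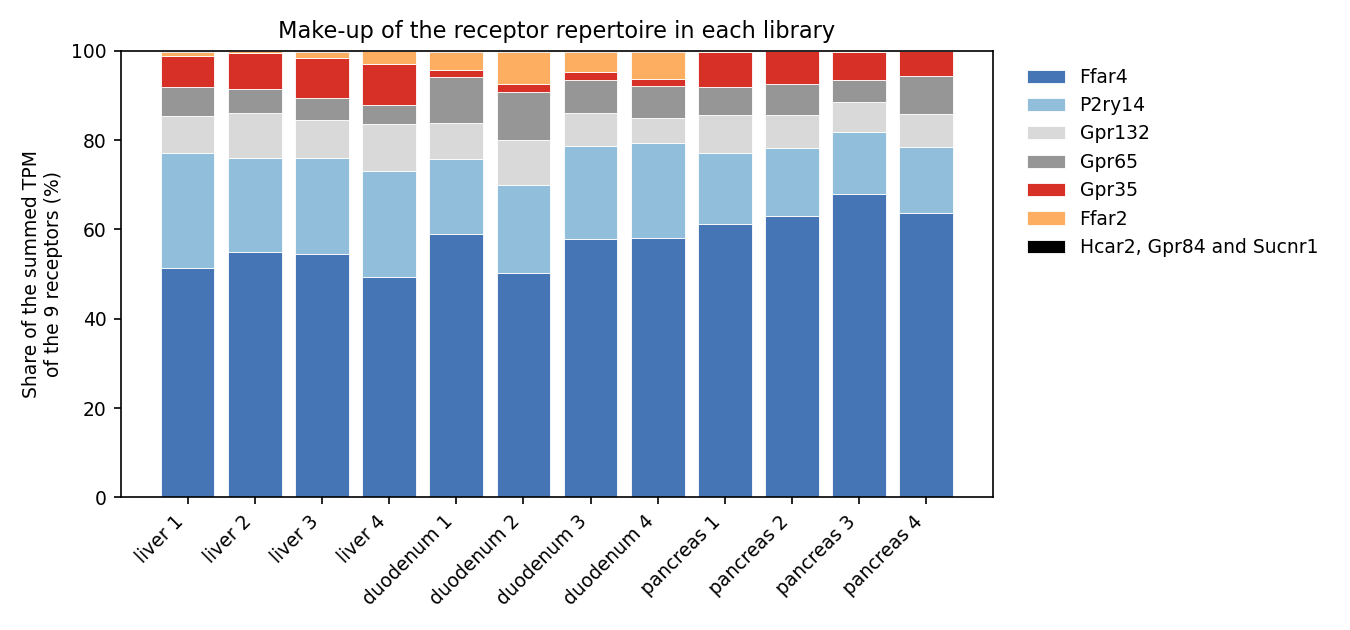
Share of each receptor in the summed TPM of the 9 receptors (vertical axis, percent), stacked for each of the 12 libraries. Ffar4 takes 49.5 to 67.9% in every library, the Gpr35 layer is thin in the 4 duodenum libraries, and the Ffar2 layer is widest there.

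Ffar2, the short-chain fatty acid receptor, was highest in duodenum in every library. Its level was 12.04, 18.6, 13.9 and 19.2 TPM in the 4 duodenum libraries. In liver it was 3.32, 0.931, 4.02 and 7.36 TPM. In pancreas it was 0.557, 0.276, 0.908 and 0.186 TPM. Duodenum overlapped with neither tissue. Liver and pancreas met at liver 2, which lay just above the highest pancreas library in TPM and below it in CPM (1.28 against 1.505).

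On the CPM scale Ffar2 stood at 25.0 ± 5.51 in duodenum, 5.52 ± 3.68 in liver and 0.74 ± 0.55 in pancreas. The log2 difference of pancreas minus duodenum was -5.08 ± 0.63 (SE), or 33.9-fold less in pancreas (edgeR quasi-likelihood test, adjusted p = 0.000122). Liver minus duodenum was -2.18 ± 0.55, or 4.54-fold less in liver (edgeR quasi-likelihood test, adjusted p = 0.0254). Liver exceeded pancreas by 2.90 ± 0.57 (edgeR quasi-likelihood test, adjusted p = 0.0213). In bulk RNA, fewer cells that express a gene and less of its RNA per cell cannot be told apart, here or below.

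The difference of Ffar2 between pancreas and duodenum stayed called in all 24 alternative settings. That between liver and duodenum was lost without liver 1 (adjusted p = 0.0692), liver 3 (0.0532) or duodenum 4 (0.0626), and that between liver and pancreas was lost without liver 3 (0.0501), liver 4 (0.0631), pancreas 1 (0.07), pancreas 2 (0.0743) or pancreas 4 (0.0581), all by the edgeR quasi-likelihood test. Several marker lists of other cells were also highest in duodenum: B and plasma cells as given above, plasmacytoid DCs (9 genes, 196 to 272 CPM against 144 to 174 in liver and 125 to 163 in pancreas) and, against liver, endothelium and stroma (14 genes, 69.8 to 93.2 against 37.1 to 48.4). The last difference lay in Vwf, since the other 13 genes summed to 17.5 to 27.6 CPM in duodenum and 19.4 to 26.2 in liver. Their part in the Ffar2 difference was not tested. The neutrophil list (12 genes) was low in every tissue, at 12.4 to 13.5 CPM in liver, 10.6 to 18.0 in duodenum and 12.9 to 17.4 in pancreas, with Ly6g under 1 CPM in every library. Leaving out liver 2, pancreas 3 and pancreas 4, the libraries of those tissues with the most B and plasma cell RNA, Ffar2 was at -1.89 for liver minus duodenum (edgeR quasi-likelihood test, adjusted p = 0.00667) and -5.44 for pancreas minus duodenum (adjusted p = 7.83e-05). All 4 duodenum libraries, which held far more of that RNA, stayed in this setting. It is therefore no test of the part of that RNA in the Ffar2 difference.

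Gpr35, the receptor with kynurenic acid among its proposed ligands, ran the other way and was low in duodenum. Its levels were 5.12, 5.01, 5.80 and 4.39 TPM in duodenum. In liver they were 24.7, 25.4, 28.3 and 23.1 TPM. In pancreas they were 25.8, 23.9, 22.2 and 18.9 TPM. The duodenum libraries lay together and far below both other tissues, which overlapped each other.

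In CPM, Gpr35 stood at 15.3 ± 1.80 in duodenum, 68.5 ± 9.25 in liver and 64.9 ± 7.76 in pancreas. Liver exceeded duodenum by a log2 difference of 2.17 ± 0.15, or 4.49-fold (edgeR quasi-likelihood test, adjusted p = 7.56e-07). Pancreas exceeded duodenum by 2.09 ± 0.15, or 4.25-fold (edgeR quasi-likelihood test, adjusted p = 6.07e-07). Both comparisons use the same 4 duodenum libraries. By p-value Gpr35 ranked 30 of 44624 genes between liver and duodenum and 58 between pancreas and duodenum, and both calls held in all 24 alternatives. Between liver and pancreas the difference was 0.08, with a 95% interval from -0.22 to 0.38 (edgeR quasi-likelihood test, adjusted p = 0.974).

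The summed levels of the cDC2 and monocyte lists were lowest in duodenum, as Gpr35 was, through 1 gene. The 10 cDC2 markers summed to 389 to 434 CPM in liver, 75.1 to 112 in duodenum and 433 to 570 in pancreas, and the 9 monocyte markers to 426 to 462, 239 to 413 and 489 to 615. Ccr2, a chemokine receptor held by both lists, made up most of the cDC2 sum in liver and pancreas, at mean levels of 390 and 453 CPM, and was at 41.7 CPM in duodenum. Without Ccr2 both sums were highest in duodenum: the other 9 cDC2 markers summed to 48.2 to 58.4 CPM there, 27.0 to 32.5 in liver and 22.8 to 26.6 in pancreas, and the other 8 monocyte markers to 205 to 361, 52.7 to 65.3 and 71.2 to 116. In duodenum the sum of those 8, at a mean of 271 CPM, was mostly Nr4a1, at 229 CPM. Of the 10 cDC2 markers, Ccr2 and Csf1r were higher in liver than in duodenum and 5 were lower, with a median log2 difference of -2.11. The part of these genes in the Gpr35 difference was not tested.

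Gpr65, which raises cyclic AMP when the outside of the cell turns acid, was higher in duodenum than in liver. Its levels were 31.1, 27.6, 23.6 and 23.1 TPM in duodenum and 22.4, 16.4, 14.9 and 11.2 TPM in liver. The pancreas libraries, at 20.2, 22.4, 17.9 and 29.5 TPM, overlapped with both. Liver and duodenum did not overlap, although liver 1 and duodenum 4 lay close together.

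Gpr65 averaged 53.7 ± 7.29 CPM in duodenum against 29.6 ± 8.10 in liver, and liver minus duodenum came to -0.86 ± 0.20 (edgeR quasi-likelihood test, adjusted p = 0.0172). Without duodenum 1 this call was lost, at -0.76 (edgeR quasi-likelihood test, adjusted p = 0.0592). Pancreas, at 43.7 ± 9.39 CPM, passed the test against neither tissue, with 95% intervals of -0.73 to 0.13 for pancreas minus duodenum and -0.99 to -0.13 for liver minus pancreas (adjusted p = 0.490 and 0.327). Of the 15 macrophage genes, Cd68 and Adgre1 were also higher in duodenum than in liver, and Cd5l and Timd4 were lower, with a median log2 difference of 0.91 for liver minus duodenum. The list summed to 168 to 214 CPM in liver and 196 to 324 in duodenum, most of it Cd68, and the other 14 genes summed to 22.4 to 23.4 and 15.5 to 23.3. Their part in the Gpr65 difference was not tested. An exon of a predicted gene on the opposite strand overlaps Gpr65 in GENCODE M21, and with strandedness not given in the sources used here, reads of that overlap cannot be assigned to either gene. The same applies to Gpr84.

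Ffar2, Gpr35 and Gpr65 were the receptors of at least 5 CPM on average that differed between tissues, so the bases before their start sites are shown (RefSeq, build GRCm38.p6, 250 bases, 5′ to 3′ on the gene's strand). Capitals mark matches to the AP-1 motif TGANTCA, where N is any base. For Ffar2 and Gpr35, which have several starts, the start with an AP-1 match was chosen after the matches were seen. The Ffar2 window is chr7:30823776-30824025 on the minus strand, the Gpr35 window chr1:92978653-92978902 on the plus strand, and the Gpr65 window chr12:98268385-98268634 on the plus strand.
Ffar2: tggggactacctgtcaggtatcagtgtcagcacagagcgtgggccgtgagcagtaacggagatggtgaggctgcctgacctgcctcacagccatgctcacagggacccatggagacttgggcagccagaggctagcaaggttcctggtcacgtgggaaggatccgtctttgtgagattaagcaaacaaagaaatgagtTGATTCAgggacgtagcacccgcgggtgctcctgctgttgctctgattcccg
Gpr35: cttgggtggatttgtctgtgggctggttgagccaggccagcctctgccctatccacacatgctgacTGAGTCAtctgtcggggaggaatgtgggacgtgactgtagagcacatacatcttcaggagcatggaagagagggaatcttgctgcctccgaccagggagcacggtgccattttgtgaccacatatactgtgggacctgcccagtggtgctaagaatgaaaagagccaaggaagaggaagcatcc
Gpr65: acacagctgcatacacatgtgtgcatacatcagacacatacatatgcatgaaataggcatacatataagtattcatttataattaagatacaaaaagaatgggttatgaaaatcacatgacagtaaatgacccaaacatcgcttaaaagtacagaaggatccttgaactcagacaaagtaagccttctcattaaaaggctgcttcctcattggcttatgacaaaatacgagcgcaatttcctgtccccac
Windows were held for 8 of the 9 receptors, 15 in all. Ffar2 had TGATTCA from 52 to 46 bases before its start, Gpr35 had TGAGTCA from 184 to 178 bases before its start, and Gpr65 had no match in its window. With both strands searched, an AP-1 match lay in 5 of the 15 windows, those of Ffar2, Gpr35, Sucnr1 and P2ry14, while 6.75% of 32851 RefSeq promoter windows of the same length held one. The windows of 1 receptor can overlap each other, so they are not separate draws. The cyclic AMP response element TGACGTCA was in none of the 15 windows (1.55% of all) and its shorter form TGACG, which the full element contains, in 1, that of Gpr132 (17.8% of all). An ETS-IRF composite motif lay in 1 window of Ffar2 (2.30% of all) and a short interferon-response motif in none (2.98% of all). A match is a description of the letters, and says nothing of binding in these cells.

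Hcar2, the ketone body and niacin receptor, was rare. Its levels were 0.780, 0.135, 0.344 and 0.200 TPM in duodenum. In liver they were 0.0301, 0.0662, 0.227 and 0.148 TPM. In pancreas they were 0.0837, 0.0618, 0.0480 and 0.0727 TPM. All duodenum libraries lay above all pancreas libraries, with duodenum 1 far above the other 3, while liver overlapped with both.

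Pancreas minus duodenum was -2.54 ± 0.65 for Hcar2 (edgeR quasi-likelihood test, adjusted p = 0.0255), at 0.12 ± 0.018 against 0.70 ± 0.56 CPM. These levels rested on 22.9 to 41.8 estimated counts per library in pancreas and 91.4 to 316 in duodenum. The call was lost without duodenum 1 (-1.85, adjusted p = 0.108) and without each pancreas library in turn (adjusted p from 0.0602 to 0.0697), and it held in 13 of the 23 alternatives that kept the gene. Liver minus duodenum was -1.77 ± 0.63 and was not called (edgeR quasi-likelihood test, adjusted p = 0.117), but was called without duodenum 2 at -2.12 (adjusted p = 0.0426).

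Sucnr1 and Gpr84, the receptors for succinate and for medium-chain fatty acids, were the other rare members. Sucnr1 was at 0.146, 0.0381, 0.141 and 0.202 TPM in liver, 0.186, 0.147, 0.657 and 0.177 in duodenum, and 0, 0.0504, 0.252 and 0.0690 in pancreas. The count of 0 in pancreas 1 allows up to 0.011 CPM, counting error only. Gpr84 was at 0.506, 0.186, 0.369 and 0.0603 TPM in liver, 0.0306, 0.194, 0.0889 and 0.331 in duodenum, and 0.136, 0.123, 0.0496 and 0.0616 in pancreas. Tuft and enteroendocrine cells of the gut are known to carry several of these receptors. A list of 15 of their genes summed to 6.40 to 13.2 CPM in duodenum, 8.53 to 11.8 in liver and 8.25 to 11.5 in pancreas, with Pou2f3 and Il25 under 1 CPM in every library. Trpm5, a tuft cell channel on that list, was higher in duodenum than in liver (edgeR quasi-likelihood test), and the part of these cells was not tested. Library ranges of both receptors overlapped in every pair of tissues, and neither was called in any comparison. Their intervals were wide: for Sucnr1 the pancreas minus duodenum interval ran from -3.70 to 0.36, and for Gpr84 the liver minus pancreas interval ran from 0.05 to 3.04 (adjusted p = 0.386 and 0.526, edgeR quasi-likelihood test).

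Ffar4, the long-chain fatty acid receptor, was called in no comparison although its liver and pancreas libraries did not overlap. Its levels were 180, 170, 168 and 126 TPM in liver, 181, 130, 183 and 182 in duodenum, and 199, 205, 246 and 218 in pancreas. In CPM, liver minus pancreas was -0.53 ± 0.18 with a 95% interval from -0.90 to -0.15 (edgeR quasi-likelihood test, adjusted p = 0.268). It was called with a filter of at least 1 CPM in 4 libraries (-0.52, adjusted p = 0.0373) and without duodenum 2 and pancreas 1 (-0.61, adjusted p = 0.0423). Duodenum 2, at 158.5 CPM against 242 to 252 in the other duodenum libraries, stood apart within its tissue. Pancreas minus duodenum was 0.29 with that library and 0.09 without it, and was not called either way (edgeR quasi-likelihood test, adjusted p = 0.421 and 0.769).

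P2ry14, the UDP-glucose receptor, varied little. It was at 89.6, 65.5, 66.6 and 60.5 TPM in liver, 51.2, 51.0, 66.2 and 66.2 in duodenum, and 51.8, 49.3, 50.2 and 50.6 in pancreas. The liver libraries lay above the pancreas libraries, by 0.39 ± 0.15 on the log2 scale of CPM, with a 95% interval from 0.06 to 0.72 (edgeR quasi-likelihood test, adjusted p = 0.399). In GENCODE M21 P2ry14 lies within Med12l on the opposite strand with no shared exon. Med12l was lower in pancreas, at 21.1 ± 2.63 CPM against 43.0 ± 11.4 in duodenum and 38.6 ± 5.04 in liver (edgeR quasi-likelihood test, adjusted p = 0.00371 and 0.0434). The part of reads from Med12l in the P2ry14 counts was not tested, and the Med12l call between liver and pancreas held in 10 of 24 alternatives.

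Gpr132, the proton sensor with lactate among its proposed ligands, was called in no comparison. It was at 29.0, 31.4, 26.4 and 26.6 TPM in liver, 25.0, 26.0, 22.9 and 17.1 in duodenum, and 27.6, 24.3, 24.8 and 24.6 in pancreas. Its differences were between 0.07 and 0.16 on the log2 scale of CPM. The 95% interval for liver minus duodenum ran from -0.11 to 0.43 (edgeR quasi-likelihood test, adjusted p = 0.577).

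**Figure D3:**
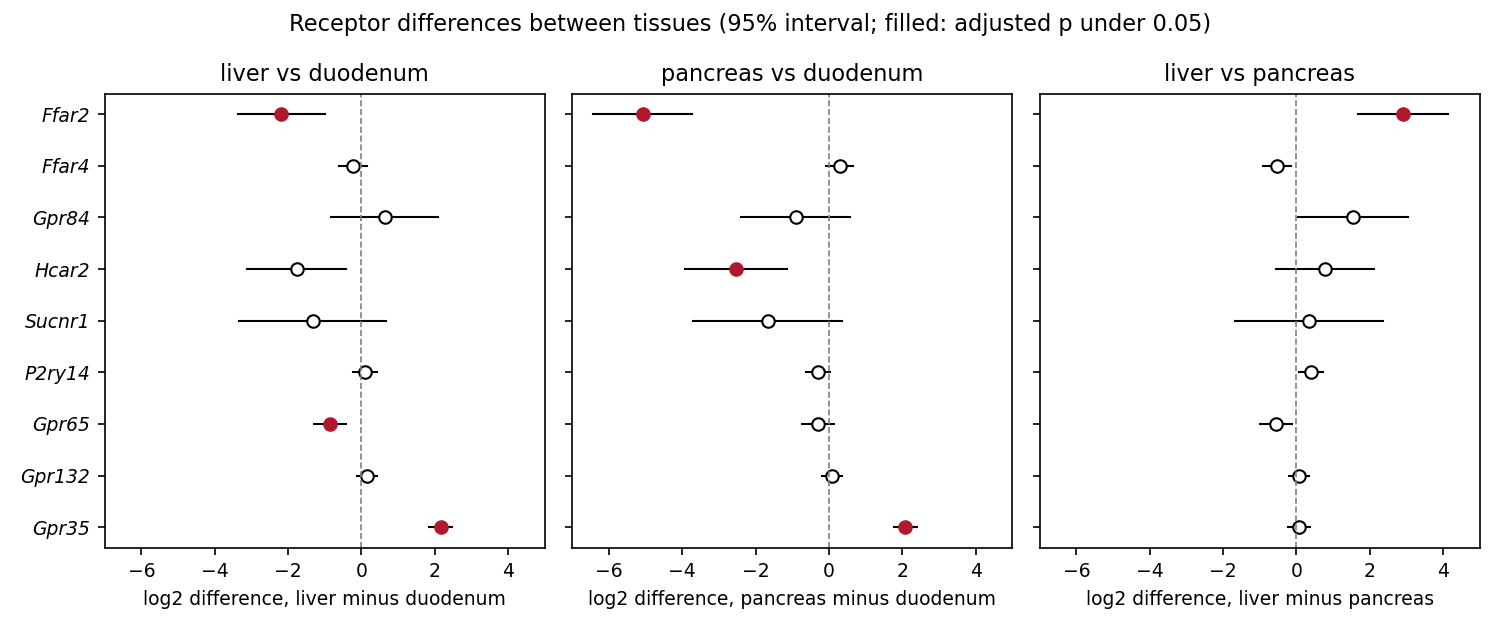
Log2 difference in CPM of each receptor in the 3 pairs of tissues (horizontal axis, first tissue minus the other), with the 95% interval as a line and filled symbols for an adjusted p under 0.05 over all tested genes. Ffar2 is filled in all 3 panels, Gpr35 lies near 2 in both comparisons with duodenum, and the intervals of Hcar2, Gpr84 and Sucnr1 are the widest beside those of Ffar2.

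Over all tested genes, 7.32% were called between liver and duodenum, and 3 of the 9 receptors were. They were Gpr35, higher in liver (3.37% of genes), and Ffar2 and Gpr65, higher in duodenum (3.95%). Between pancreas and duodenum 7.70% of genes and 3 of the 9 receptors were called, namely Gpr35, higher in pancreas (3.76%), and Ffar2 and Hcar2, higher in duodenum (3.94%). Between liver and pancreas 1.11% of genes and 1 receptor, Ffar2, were called, with 0.426% of genes higher in liver and 0.681% higher in pancreas. Among genes with a mean of at least 5 CPM over the 12 libraries, more were called: 19.2%, 20.1% and 3.02% in the 3 comparisons. Of the 6 receptors at that level, 3, 2 and 1 were called. Without liver 2, pancreas 3 and pancreas 4 the counts over all 9 receptors were 3, 2 and 1, and without duodenum 2 and pancreas 1 they were 3, 3 and 1, the last being Ffar4 in place of Ffar2. The receptors were chosen with earlier results of these data known, so their counts are a description. The split of all calls depended on the scaling: of the genes called between liver and duodenum 46.0% were higher in liver with TMM, 35.3% with DESeq2 size factors and 63.5% with library totals, as the median log2 difference over all genes moved from 0.10 to 0.02 and 0.25. The called receptor differences kept their sign under all 3.

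Relatives of the 9 receptors in sequence or ligand gave a wider view of the duodenum pattern. A list of 24 other receptors for lipids, protons, nucleotides and adenosine held 6 that were higher in liver than in duodenum (among them Gpr34, Cnr2, P2ry6, Adora2a and Adora3) and 1 that was lower (Gpr55). Pancreas exceeded duodenum in 8 (among them these 5 with P2ry2 and P2ry10) and was lower in 4 (Gpr31b, Gpr4, Gpr55 and Gpr18). Some of these calls were fragile. Gpr34 held in 14 of 24 alternatives for liver and in 9 for pancreas. In pancreas, P2ry2, at 0.19 to 0.47 CPM per tissue, held in 11, and Gpr31b and Gpr18 in 16 each. The median log2 difference of the list was 0.33 for liver and 0.37 for pancreas minus duodenum, against 0.10 and 0.09 over all tested genes. Of the list, 29.2% were called for liver, beside 7.32% of all tested genes and 19.2% of those of at least 5 CPM. For pancreas 50% were called, beside 7.70% and 20.1%. Between liver and pancreas only Gpr4, higher in liver, and P2ry10, higher in pancreas, were called, and both calls were lost without liver 3, among other libraries.

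P2ry6, a receptor for UDP, had a profile like that of Gpr35. Its mean was 9.68 ± 1.97 CPM in duodenum, beside 84.7 ± 18.1 in liver and 100.3 ± 14.8 in pancreas, a log2 difference from duodenum of 3.13 ± 0.20 in liver and 3.37 ± 0.20 in pancreas (edgeR quasi-likelihood test, adjusted p = 4.45e-07 and 1.89e-07). Cnr2, the cannabinoid receptor of immune cells, was at 2.21 ± 1.03, 30.5 ± 4.22 and 35.4 ± 6.56 CPM in the same order. Adora3, an adenosine receptor, was at 10.3 ± 3.90, 51.9 ± 6.63 and 34.0 ± 5.82 CPM.

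Gpr55, a receptor for lysophospholipids, shared the direction of Ffar2 between duodenum and the other tissues, with 11.7 ± 1.99 CPM in duodenum beside 1.57 ± 0.78 in liver and 1.20 ± 0.65 in pancreas. Its log2 difference from duodenum was -2.89 ± 0.39 in liver and -3.28 ± 0.40 in pancreas (edgeR quasi-likelihood test, adjusted p = 0.000329 and 0.000103). Gpr4, a proton sensor like Gpr65, was at 57.2 ± 9.71, 52.9 ± 6.46 and 24.4 ± 7.74 CPM in that order and so was low in pancreas alone. The named calls of P2ry6, Cnr2, Adora3 and Gpr55 against duodenum, and of Gpr4 between pancreas and duodenum, each held in 24 of 24 alternatives. The nearest relatives of Ffar2 and Hcar2 were rare and not called: Ffar3 averaged 0.15 to 0.32 CPM per tissue, Ffar1 1.36 to 1.70 and Hcar1 0.26 to 0.71.

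**Figure D4:**
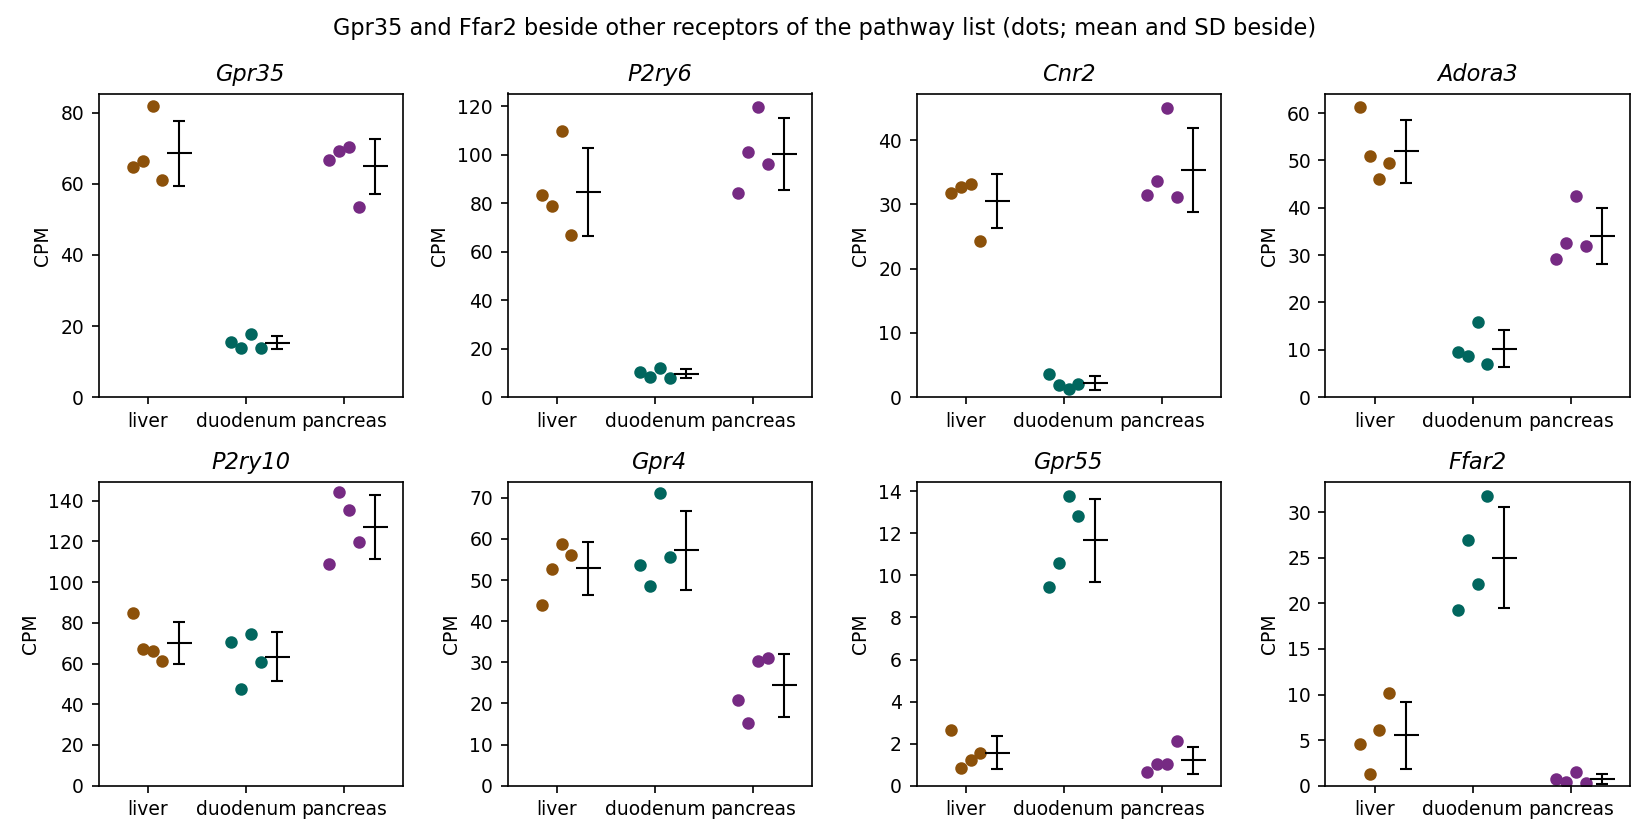
CPM of Gpr35, Ffar2 and 6 receptors of the list of 24 (vertical axis, linear, own scale for each gene) in the 4 libraries of each tissue, with dots for libraries and a bar with whiskers for the mean and SD. P2ry6, Cnr2 and Adora3 are low in duodenum as Gpr35 is, Gpr55 and Ffar2 are high there, and P2ry10 and Gpr4 set pancreas apart. The 6 were chosen after their values were seen.

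The genes that carry the signal onward changed in both directions. Of 22 G protein subunits, 3 were lower in liver than in duodenum and none higher, or 13.6% of the list beside 7.32% of all tested genes and 19.2% of those of at least 5 CPM. Without duodenum 2 and pancreas 1, 7 were lower. Gna13, the subunit that links receptors to the actin skeleton, averaged 199 ± 22.0 CPM in duodenum, beside 98.8 ± 11.3 in liver and 104 ± 16.8 in pancreas (edgeR quasi-likelihood test, adjusted p = 0.000395 and 0.000672 against duodenum). Gna15, a promiscuous subunit of blood cells, was higher in pancreas (121 ± 15.7 CPM) than in duodenum (58.8 ± 13.3), with adjusted p = 0.000924. Of 27 genes for making, breaking down and answering cyclic AMP, 3 were higher and 3 lower in liver than in duodenum, and 5 and 5 in pancreas. Over all tested genes 7.32% and 7.70% were called, and 19.2% and 20.1% of those of at least 5 CPM. Of this list 22.2% and 37.0% were. Without duodenum 2 and pancreas 1, 2 were higher and 9 lower in liver, and without liver 2, pancreas 3 and pancreas 4, 2 were higher and 2 lower in pancreas. The cyclases Adcy6 and Adcy4 rose with Gpr35: Adcy6 averaged 2.76 ± 0.92 CPM in duodenum, beside 21.3 ± 8.49 in liver and 27.3 ± 4.90 in pancreas (adjusted p = 5.57e-05 and 1.56e-05). Pde4b, which degrades cyclic AMP, was lower in liver (55.9 ± 3.96 CPM) than in duodenum (102 ± 20.9), with adjusted p = 0.0018.

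Genes that switch receptors off also split. Of 16 such genes, 3 were higher and 3 lower in liver than in duodenum, and 5 and 2 in pancreas, or 2 and 2 in pancreas without liver 2, pancreas 3 and pancreas 4. With all libraries the calls were 37.5% and 43.75% of the list, beside 7.32% and 7.70% of all tested genes. Of genes of at least 5 CPM, 19.2% and 20.1% were called. Grk3, a kinase that marks active receptors for removal, averaged 107 ± 10.1 CPM in duodenum, beside 231 ± 7.02 in liver and 246 ± 21.9 in pancreas (edgeR quasi-likelihood test, adjusted p = 2.21e-05 and 6.50e-06 against duodenum). Rgs1, which shortens G protein signals, was at 200 ± 35.4, 33.4 ± 6.34 and 59.0 ± 12.5 CPM (adjusted p = 2.45e-06 and 3.94e-05). The list's median log2 difference was 0.11 and 0.09, beside 0.10 and 0.09 over all genes.

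Genes that move or use the ligands were called in both comparisons with duodenum. Their numbers changed when sets of libraries were left out, as those over all genes did. Of 18 genes for short-chain acids, ketone bodies and lactate, 1 was higher and 3 lower in liver than in duodenum, and 3 higher and 7 lower in pancreas. These calls were 22.2% and 55.6% of the list, beside 7.32% and 7.70% of all tested genes. Of genes of at least 5 CPM, 19.2% and 20.1% were called. Bdh1, which interconverts the ketone bodies, averaged 6.87 ± 2.02 CPM in duodenum, beside 1.01 ± 0.40 in liver and 1.58 ± 0.90 in pancreas (edgeR quasi-likelihood test, adjusted p = 0.00154 and 0.00741). Slc16a6, a transporter linked to ketone bodies, was at 26.1 ± 6.96, 5.54 ± 0.94 and 6.98 ± 0.95 CPM (adjusted p = 1.63e-05 and 3.93e-05). The mean of Hcar2 was also highest in duodenum, but Hcar2 was rare and not called against liver, and a link to these genes was not tested. Without liver 2, pancreas 3 and pancreas 4, 1 was higher and 3 lower in liver, and 2 higher and 2 lower in pancreas. Without duodenum 2 and pancreas 1 it was 1 and 7 in liver, and 3 and 8 in pancreas.

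Of 22 genes for long- and medium-chain fatty acids, the ligands of Ffar4 and Gpr84, 1 was higher in liver than in duodenum, and in pancreas 3 were higher and 1 lower. That was 4.55% and 18.2% of the list, beside 7.32% and 7.70% of all tested genes. Of genes of at least 5 CPM, 19.2% and 20.1% were called. Cd36, a fatty acid transporter, averaged 757 ± 106 CPM in pancreas against 423 ± 132 CPM in duodenum, with adjusted p = 0.0198 by the edgeR quasi-likelihood test, and its call held in 17 of 24 alternatives. Without liver 2, pancreas 3 and pancreas 4 none of the 22 was called in either comparison. Of 13 genes for succinate and itaconate, Suclg1 alone was called, lower in pancreas than in duodenum. Of 11 for UDP-glucose only Slc35d2, a UDP-sugar transporter of the Golgi, was called, also lower in pancreas (8.63 ± 1.65 against 21.4 ± 5.33 CPM, edgeR quasi-likelihood test, adjusted p = 0.00101). These calls were 7.69% and 9.09% of their lists, beside 7.70% of all tested genes. Without duodenum 2 and pancreas 1, 3 of the 13 genes for succinate and itaconate fell below duodenum in pancreas and 7 did so in liver, where none was called with all libraries (3 at an unadjusted p under 0.05, edgeR quasi-likelihood test, and 0 by DESeq2 or by limma on log2(TPM + 1)). Between liver and pancreas none of the 107 genes in the lists for cyclic AMP, desensitisation and the 4 ligand groups was called by the edgeR quasi-likelihood test, while 19 had an unadjusted p under 0.05, DESeq2 called 5 and limma on log2(TPM + 1) called 1.

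**Figure D5:**
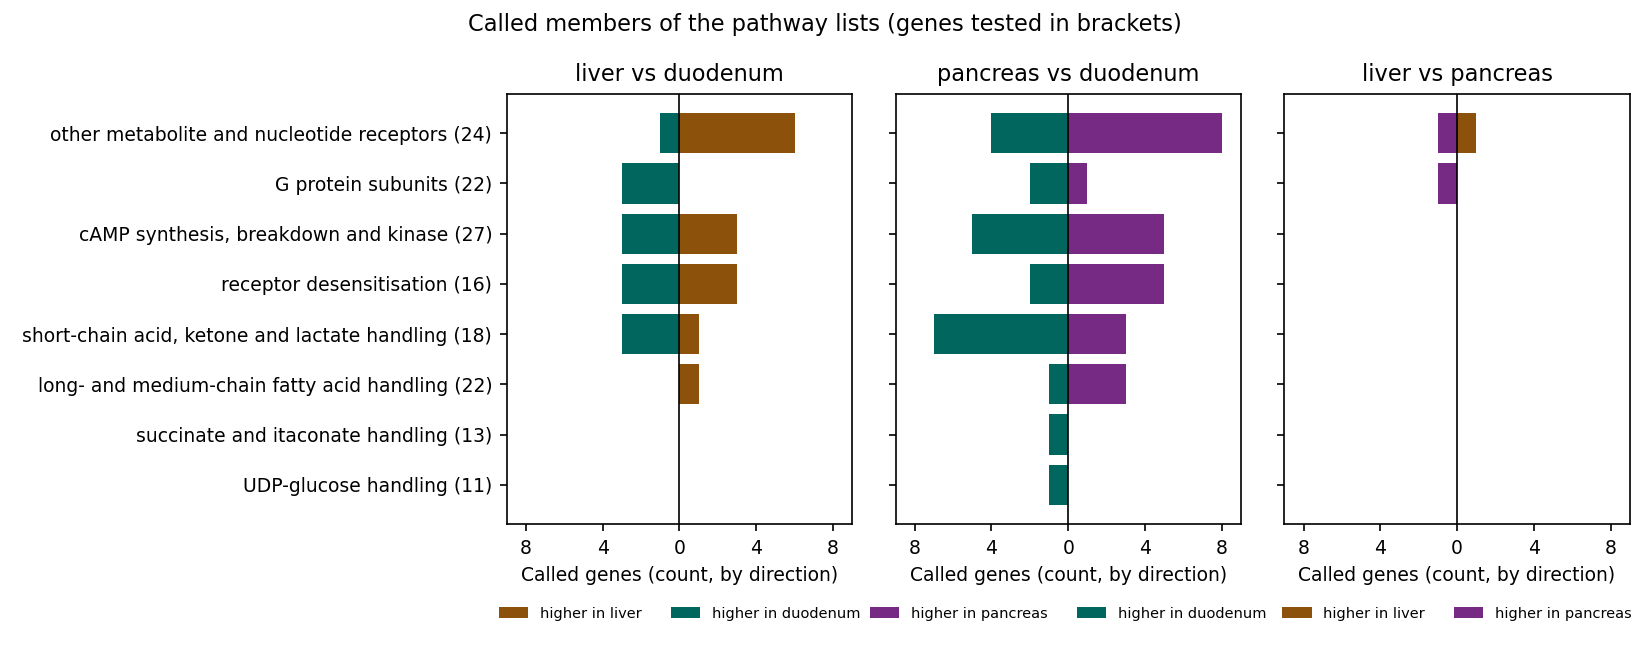
Number of called genes in 8 lists around the receptors (horizontal axis, counts to the right for genes higher in the first tissue and to the left for genes higher in the other) for the 3 pairs of tissues, with the number tested in brackets. With all libraries, counts are highest for pancreas against duodenum, where 12 of 24 other receptors and 10 of 18 genes for short-chain acids, ketone bodies and lactate are called, and 3 in all are called between liver and pancreas. Of all tested genes, 7.70% and 1.11% are called in these 2 comparisons.

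For each receptor of at least 5 CPM in a tissue, the genes most alike over the 12 libraries were found by Pearson correlation of log2 CPM among 9974 genes. Libraries of 1 tissue share that tissue, so a gene that differs between tissues in the same way ranks high. Gpr35 was closest to P2ry6 (r = 0.990), Gcsam (0.989) and Spata13 (0.987), each high in liver and pancreas. Ffar2 was closest to Sdhaf4 (0.964), Abi3 (0.957) and Slco3a1 (0.937). Abi3, a regulator of the actin skeleton, averaged 24.6 ± 5.39 CPM in duodenum, beside 7.98 ± 2.22 in liver and 3.06 ± 0.48 in pancreas, the order of Ffar2. Gpr65 was closest to Egr2 (0.905), Picalm (0.894) and Cd14 (0.894). Ffar4 was closest to Afg3l2 (0.968), a protease of mitochondria, Bola3 (0.947) and Mrpl30 (0.939). P2ry14 was closest to Ptger2 (0.943), the prostaglandin receptor, Mier1 (0.942) and Klhl18 (0.939), and Gpr132 to Mirt1 (0.83), Hsh2d (0.794) and Tmc6 (0.790). These values are a description over 12 libraries, with the highest of 9974 values picked each time.

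The genes beside the receptors in the genome did not all share their pattern. Of 11 such neighbours, pancreas had 3 lower than duodenum, and liver had 1 higher and 2 lower. That was 27.3% of them in each comparison, beside 7.70% and 7.32% of all tested genes. Of genes of at least 5 CPM, 20.1% and 19.2% were called. Gpr171, a receptor gene near P2ry14, averaged 686 ± 157 CPM in duodenum, beside 195 ± 50.8 in liver and 283 ± 77.1 in pancreas (edgeR quasi-likelihood test, adjusted p = 0.000172 and 0.00227 against duodenum), while P2ry14 itself was called in neither comparison. Jag2, a Notch ligand near Gpr132, was likewise highest in duodenum (23.8 ± 6.26 against 9.10 ± 1.61 CPM in liver and 10.9 ± 1.13 in pancreas). Rbp4, the plasma carrier of vitamin A that hepatocytes are known to secrete, lies near Ffar4 and was higher in liver (2.73 ± 0.98 CPM) than in duodenum (0.31 ± 0.32) or pancreas (0.22 ± 0.21), with adjusted p = 0.0118 and 0.0203 by the edgeR quasi-likelihood test. A list of 13 hepatocyte genes, led there by Alb, summed to 28.0 to 47.0 CPM in liver libraries, 2.73 to 4.68 in those of duodenum and 4.19 to 6.64 in those of pancreas, and its part in the Rbp4 difference was not tested. The call against pancreas was lost without liver 2, liver 3, pancreas 1, pancreas 3 or pancreas 4. Capn10, near Gpr35, was level at 8.62 to 9.08 CPM per tissue and was not called, nor were P2ry12 and P2ry13 near P2ry14.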

How the data were processed

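RNA of sorted migratory DCs was sequenced from liver, duodenum and pancreas, with 4 libraries per tissue grouped by their titles. The authors deposited estimated counts and TPM values for 55401 genes. Per the submitters' processing notes, kallisto and the build GRCm39 were used, while version, index, gene summary and library strand were not given in the sources used here. Rounded estimated counts were tested with edgeR 4.0.16 in R 4.3.3 (filterByExpr with a minimum count of 10, TMM, robust quasi-likelihood fit of the 12 libraries with tissue as the only term), and p-values were Benjamini-Hochberg adjusted over 44624 genes. A gene was called at an adjusted p under 0.05. SE is the absolute log2 difference over the square root of F. DESeq2 1.42.0 and limma 3.58.1 served as alternatives.

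The receptors, gene lists and tests were chosen with earlier results of these data known. Genes named beside the receptors were, per list, comparison and direction, up to 3 called genes with the largest difference and 5 CPM or more on the higher side, with the 3 genes most alike to each receptor, the receptors' genome neighbours and the leading gene of a marker list. Others named only as called members of a list were chosen after their values were seen, as were the motif windows shown.

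The fit was tested on simulated data for liver against duodenum with 42867 genes, and recovered 30% of 2-fold and 89% of 4-fold changes with 1.65% false calls. The simulation changed far fewer genes than were called in the data, and none as rare as Hcar2, Gpr84 and Sucnr1. Its rates therefore need not hold for the data or for these receptors. Each library is a pool of 2 mice, and labels do not say whether libraries of different tissues share mice. They give no sequencing batch. Reads have no molecular identifiers, so count limits cover counting error only. Coordinates of promoters are from RefSeq's GRCm38.p6 and were not converted to the build of the files. Single-cell data that the design text mentions were not analysed here, and some genes of the lists are not reported here.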

Additional observations from a re-analysis of the deposited data

Results flagged for a closer look

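In 1 of 27 groups, each the 4 libraries of 1 tissue for 1 receptor, a library stood apart from the other 3 by Dixon's ratio on log2 CPM, where chance flags about 1 group in 20. It was Ffar4 in duodenum 2, at 158.5 CPM against 242 to 252 CPM in the other duodenum libraries, with a ratio of 0.915, above the 95% critical value for 4 samples. In TPM the library was at 129.8 against 181 to 183.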

How the results depend on the processing

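Each receptor difference was recomputed under up to 24 alternatives, and 603 of 639 values kept their direction and side of the threshold. Both Gpr35 calls against duodenum and that of Ffar2 in pancreas against duodenum held in all 24. The cause of each change below was not tested.

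Ffar2 between liver and pancreas was not called with limma on log2(TPM + 1) without a filter (1.57 on that scale), with only the 2 tissues (2.92), or without duodenum 2 and pancreas 1 (2.93). Gpr65 between liver and duodenum was not called with limma on log2(TPM + 1) without a filter (-0.70). Hcar2 between pancreas and duodenum was not called with limma on log2(TPM + 0.1) (-1.29) or on log2(TPM + 1) with or without a filter (-0.33 and -0.33). Nor was it called there without liver 2, pancreas 3 and pancreas 4 (-2.52). Between liver and duodenum Hcar2 was called by DESeq2 (-1.88). Ffar4 was called between liver and pancreas with at least 1 CPM in 4 libraries (-0.52) or without duodenum 2 and pancreas 1 (-0.61), and between pancreas and duodenum with library totals (0.38). Receptors called between liver and pancreas numbered 2 with at least 1 CPM in 4 libraries, 0 with limma on log2(TPM + 1) without a filter and 0 with only the 2 tissues. Without duodenum 2 and pancreas 1, P2ry14 for liver minus duodenum was -0.058 and Sucnr1 for liver minus pancreas was -0.066. That stricter filter dropped Hcar2, Gpr84 and Sucnr1, so it gave no value for them.

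Leaving out 1 library at a time, Ffar2 ran from -2.71 to -1.90 for liver minus duodenum and from 2.43 to 3.50 for liver minus pancreas. Gpr65 for liver minus duodenum ran from -1.09 to -0.76. Hcar2 ran from -2.42 to -1.08 for liver minus duodenum and from -2.89 to -1.85 for pancreas minus duodenum. Of differences near 0, P2ry14 for liver minus duodenum ran from -0.069 to 0.17 (-0.058 without duodenum 2, -0.069 without liver 1), Gpr132 for pancreas minus duodenum from -0.037 to 0.15 (-0.037 without duodenum 4), Gpr35 for liver minus pancreas from -0.018 to 0.12 (-0.018 without liver 3, -0.0025 without pancreas 4) and Sucnr1 for liver minus pancreas from -0.065 to 1.68 (-0.065 without pancreas 1). Receptors called between liver and pancreas numbered 0 to 1.

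Over all genes, 3265, 3437 and 494 were called for liver against duodenum, pancreas against duodenum and liver against pancreas. Between liver and duodenum DESeq2 called 5133, and 4913 were called without duodenum 2 and pancreas 1. Between liver and pancreas 931 were called with at least 1 CPM in 4 libraries, 1171 by DESeq2, 820 with library totals and 343 to 749 with 1 library left out. Without liver 2, pancreas 3 and pancreas 4, 2069, 1712 and 177 were called. Of 648 recomputed list counts, 123 moved by more than 1.5 times.

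Libraries that share a replicate number did not deviate together: over 1000 genes their correlations ran from -0.05 to 0.10, 1 of 12 was over 0.1, and 5 of 12 libraries correlated best with their own number. With the replicate number as a block, 2931, 3125 and 436 genes were called, and Hcar2 in pancreas minus duodenum was -2.32 and not called (adjusted p = 0.069).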
